A study of Mus musculus with 6 samples.

Results

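Of 10 genes that set the entry into the cell cycle or answer to p53, the CDK inhibitor genes Cdkn1c and Cdkn1a rose in the quadriceps of nebulin +/- mice, and the other 8 did not pass the test. The share that passed among all tested probe sets was 3.11%, counting both directions. The 10 were taken by name, with earlier results of these data known. They were 4 inhibitors of cyclin-dependent kinases (Cdkn1a, Cdkn1b, Cdkn1c, Cdkn2c) and 3 D cyclins (Ccnd1, Ccnd2, Ccnd3). The other 3 were genes known as p53 targets (Gadd45a, Mdm2, Ccng1). Cdkn1a belongs to the last class as well. Each was found through its Entrez identifier as 1 probe set among the 15270 named genes of the array, and all 10 were bright enough to be tested. The samples were quadriceps, a muscle of the thigh, from 3 mice with one intact nebulin allele (nebulin +/-, heterozygous) and 3 with both (nebulin +/+, wild type), with 1 Affymetrix array per mouse. The labels state no treatment. The labels used here give no strain, sex or age and do not describe how the nebulin allele was altered. Nebulin, a protein of the skeletal muscle thin filament, is encoded by Neb, with a mean log2 signal of 11.92 ± 0.17 in the heterozygous group and 12.14 ± 0.05 in the wild-type group (SD, n = 3 each). Every heterozygous mouse was below every wild-type mouse, but only just. The nearest were heterozygous mouse 1 at 12.081 and wild-type mouse 2 at 12.086. The log2 difference of -0.22 did not pass over all probe sets (limma, adjusted p = 0.161). It was -0.31 and passed without heterozygous mouse 1 (adjusted p = 0.0399), and it was -0.13 without heterozygous mouse 2. Where its probes lie relative to the altered allele is not stated, so Neb does not test the genotype labels.

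D cyclins bind the kinases CDK4 and CDK6, and the complex phosphorylates the retinoblastoma protein so that E2F factors can start DNA synthesis. INK4 proteins, such as the p18 product of Cdkn2c, hold the kinases away from the cyclins, whereas the Cip/Kip proteins p21 (Cdkn1a), p27 (Cdkn1b) and p57 (Cdkn1c) bind the cyclin and kinase together and mainly block CDK2. Muscle fibres are post-mitotic cells. When myoblasts leave the cycle to differentiate, p21, p57 and cyclin D3 are known to accumulate, while cyclin D1 is lost. The factor p53 switches on Cdkn1a, Gadd45a, Mdm2 and Ccng1 after DNA damage, and Mdm2 in turn marks p53 for degradation.

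The 250 bases before the annotated starts were read from RefSeq (GRCm38.p6), where 7 of the 10 genes matched, with 10 starts in all. The p53 half-site pattern, searched by its consensus on both strands, was found before 4 of the 10 starts, 1 each of Cdkn1a, Gadd45a, Mdm2 and Ccng1, against 7.13% of all 32851 starts in the table. The other Cdkn1a start, and those of Ccnd3, Cdkn1b and Cdkn2c, had no match in this window. A match is a string of letters and not a measured binding site. Only single half-sites were searched, and bases after the start were not read. The 4 genes had been named as p53 targets beforehand, so the count is no separate evidence that p53 acts on them. The 4 stretches follow 5′ to 3′ along the gene, ending at the base before the start, with the matches in capitals.
Cdkn1a, chr17:29090729-29090978, plus strand: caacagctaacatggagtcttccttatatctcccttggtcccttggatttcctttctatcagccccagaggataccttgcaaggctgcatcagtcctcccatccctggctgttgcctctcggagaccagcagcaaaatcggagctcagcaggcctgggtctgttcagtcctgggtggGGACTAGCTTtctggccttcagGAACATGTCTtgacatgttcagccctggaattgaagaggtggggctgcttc
Gadd45a, chr6:67037408-67037657, minus strand: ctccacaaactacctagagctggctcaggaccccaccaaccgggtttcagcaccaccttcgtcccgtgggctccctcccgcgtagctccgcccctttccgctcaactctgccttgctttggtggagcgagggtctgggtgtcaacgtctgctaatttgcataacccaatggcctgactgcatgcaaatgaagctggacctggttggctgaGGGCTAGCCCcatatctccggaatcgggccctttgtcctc
Mdm2, chr10:117710759-117711008, minus strand: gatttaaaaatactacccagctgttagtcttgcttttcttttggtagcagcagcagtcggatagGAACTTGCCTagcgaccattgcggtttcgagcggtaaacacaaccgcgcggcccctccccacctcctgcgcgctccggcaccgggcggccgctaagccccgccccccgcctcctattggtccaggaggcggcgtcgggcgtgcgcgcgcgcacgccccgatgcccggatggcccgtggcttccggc
Ccng1, chr11:40755287-40755536, minus strand: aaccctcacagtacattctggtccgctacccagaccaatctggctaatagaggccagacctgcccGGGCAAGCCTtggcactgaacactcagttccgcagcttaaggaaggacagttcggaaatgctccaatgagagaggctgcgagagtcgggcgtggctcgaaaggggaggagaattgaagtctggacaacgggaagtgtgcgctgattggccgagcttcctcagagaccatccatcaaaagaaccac
The matches begin 73 and 51 bases before the start in Cdkn1a, 40 in Gadd45a, 186 in Mdm2 and 185 in Ccng1. Of these 4 genes Cdkn1a rose in the arrays and the other 3 did not pass the test.

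Values are log2 signals that had been brought to one distribution on all arrays, so they measure a gene relative to the rest of its array. Each difference is heterozygous minus wild type from a limma fit over all 11544 tested probe sets, with Benjamini-Hochberg adjusted p and a threshold of 0.05. Of all tested probe sets 3.11% passed, 1.53% higher and 1.58% lower in heterozygous mice. With the mouse number as a block the share was 4.95%. Of the 10 genes 2 rose and none fell, in either fit. The groups did not overlap at 3 of the 10, all higher in heterozygous mice, and at 26.3% of all tested probe sets, 13.1% in that direction. The median difference of the 10 was 0.03, and that of all tested probe sets was -0.00133. The muscle fibre markers were bright, with a mean log2 signal over 12 markers of 13.57 to 13.70 in heterozygous and 13.63 to 13.68 in wild-type mice. Among them Acta1 held the top value of every array, 14.81, so it could not show a difference. The tissue is a mixture of cells, and a change in the number of cells of a type cannot be told apart from a change in RNA per cell.

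**Figure D1:**
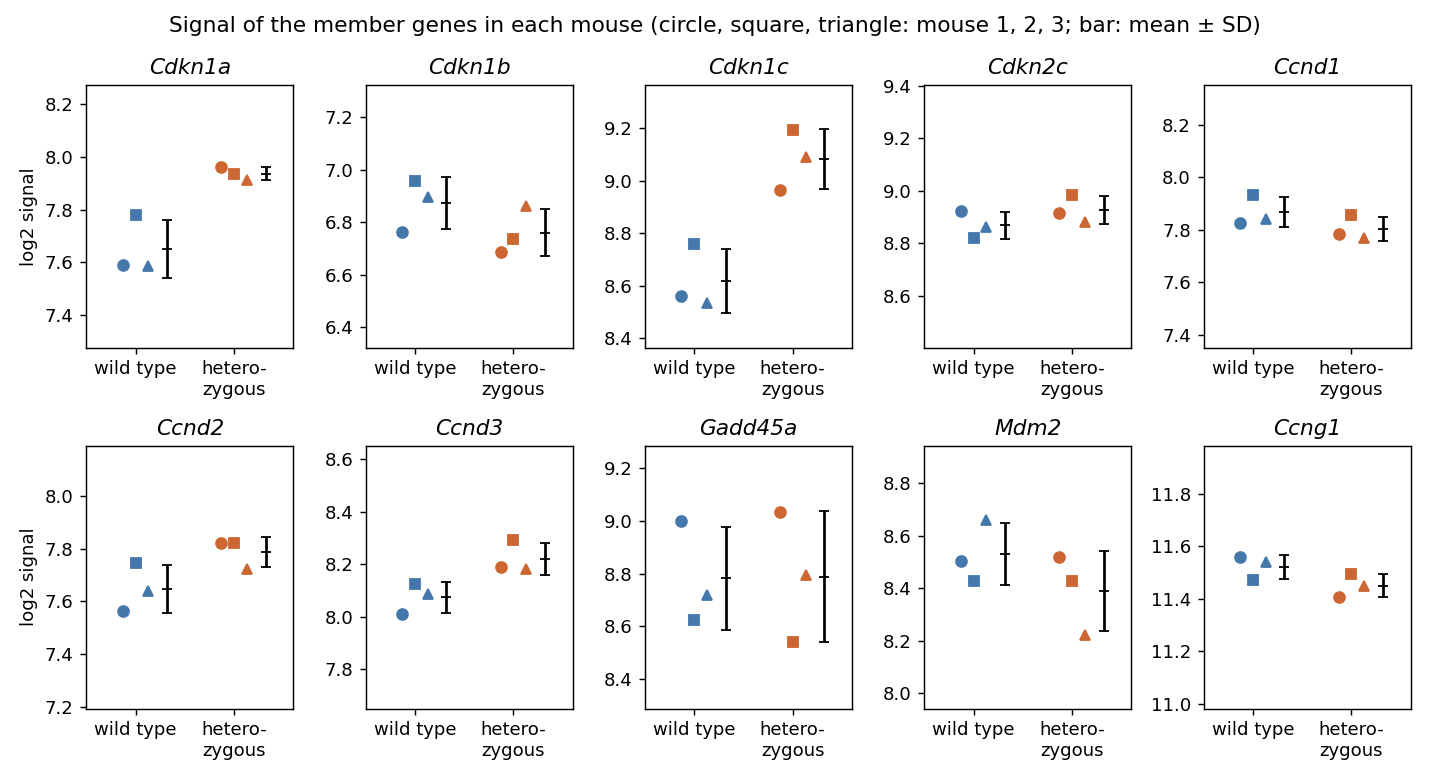
Log2 signal (vertical axis, a span of 1 log2 unit in each panel) of the 10 genes in each mouse, with wild-type mice in blue and heterozygous mice in orange, symbols for the mouse number, and bars for the group mean ± SD (n = 3). The groups do not overlap for Cdkn1a, Cdkn1c and Ccnd3, and they overlap for the other 7 genes.

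Cdkn1c, which encodes p57 and is expressed from the maternal allele, had the largest difference of the 10. Its log2 signal was 8.96, 9.19 and 9.09 in heterozygous mice 1 to 3 and 8.56, 8.76 and 8.54 in wild-type mice 1 to 3. Every heterozygous mouse was above every wild-type mouse, with a gap of 0.20 between the nearest. The group means of 9.08 ± 0.11 and 8.62 ± 0.12 (SD, n = 3 each) differed by 0.46 ± 0.07 (SE), a 1.38-fold increase (limma, adjusted p = 0.0211). Same-numbered mice differed by 0.40, 0.43 and 0.55. With each mouse left out in turn, the group difference ranged from 0.41 to 0.53. The adjusted p was 0.0114 without heterozygous mouse 1 and 0.0274 without wild-type mouse 2, but Cdkn1c missed the threshold without heterozygous mouse 2 (0.0667) or 3 (0.0775), and without wild-type mouse 1 (0.0772) or 3 (0.063).

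Cdkn1a, which encodes p21 and is the best known p53 target of the cell cycle, rose by less. The signal was 7.96, 7.93 and 7.91 in the heterozygous mice and 7.59, 7.78 and 7.58 in the wild-type mice. The heterozygous mice lay close together, and wild-type mouse 2 was nearer to them than the other wild-type mice were. The means of 7.94 ± 0.03 and 7.65 ± 0.11 (SD, n = 3 each) differed by 0.29 ± 0.06 (SE), 1.22-fold (limma, adjusted p = 0.0354). Among fits that left out a mouse, Cdkn1a passed only without wild-type mouse 2 (adjusted p = 0.0257, difference 0.35). It missed the threshold without heterozygous mouse 1 (0.0558), 2 (0.103) or 3 (0.102) and without wild-type mouse 1 (0.113) or 3 (0.0998). The difference ranged from 0.25 to 0.35 over the 6 fits that left out a mouse.

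The third Cip/Kip gene, Cdkn1b, had a difference of the opposite sign that did not pass. Its signal, only 0.08 above the limit for testing, was 6.69, 6.73 and 6.86 in heterozygous and 6.76, 6.96 and 6.90 in wild-type mice. The groups overlap, and the difference was -0.11 with a 95% confidence interval of -0.25 to 0.03 (limma, adjusted p = 0.35). Cdkn2c, the only INK4 gene of the 10, read 8.91, 8.98 and 8.88 against 8.92, 8.82 and 8.86. These values overlap, with a difference of 0.06 and an interval of -0.04 to 0.16 (limma, adjusted p = 0.49).

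**Figure D2:**
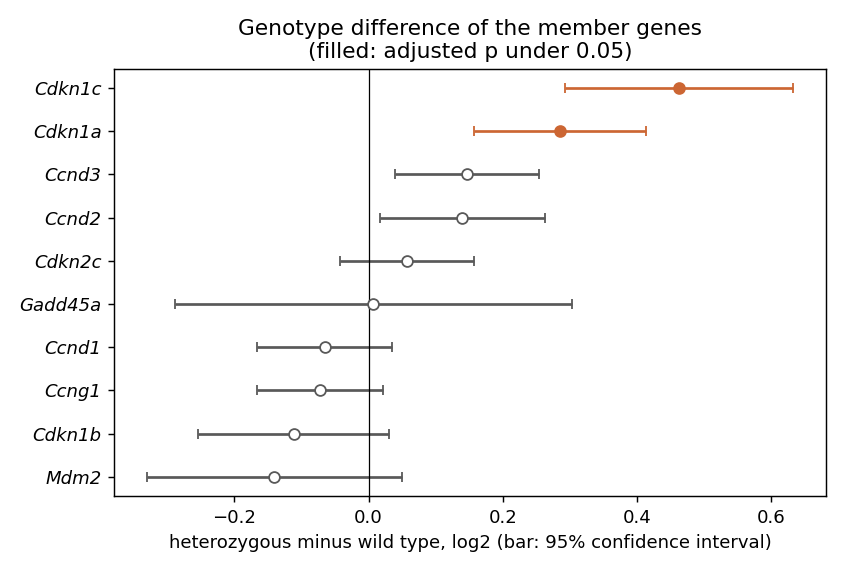
Difference between heterozygous and wild-type mice on the log2 scale (horizontal axis) for each of the 10 genes, with 95% confidence intervals from limma; filled orange points passed an adjusted p of 0.05. Cdkn1c at 0.46 and Cdkn1a at 0.29 passed, and the intervals of Ccnd3 and Ccnd2 lie above 0 although neither passed over all probe sets.

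Of the D cyclins, Ccnd3 and Ccnd2 had positive differences and Ccnd1 a negative one, and none passed. Ccnd3, the D cyclin that differentiated muscle keeps, measured 8.19, 8.29 and 8.18 in heterozygous and 8.01, 8.12 and 8.09 in wild-type mice. The groups do not overlap, and the nearest mice were 0.06 apart. The difference was 0.15 ± 0.05 (SE), 1.11-fold, with an interval of 0.04 to 0.25 (limma, adjusted p = 0.129). Ccnd2 measured 7.82, 7.82 and 7.72 against 7.56, 7.75 and 7.64. Wild-type mouse 2 reached above heterozygous mouse 3, so the groups overlap slightly. The difference was 0.14 ± 0.05 (SE), 1.10-fold, with an interval of 0.02 to 0.26 (limma, adjusted p = 0.195). Ccnd1, the D cyclin of proliferating cells, measured 7.78, 7.85 and 7.77 against 7.83, 7.93 and 7.84. Its groups overlap, with a difference of -0.07 and an interval of -0.17 to 0.04 (limma, adjusted p = 0.44). An unadjusted p under 0.05 was reached by 4 of the 10 genes and by 20.5% of all tested probe sets.

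The p53 targets other than Cdkn1a did not pass. Gadd45a, which encodes a stress protein that binds Cdk1 and PCNA, measured 9.03, 8.54 and 8.79 in heterozygous and 9.00, 8.63 and 8.72 in wild-type mice. Mouse 1 was highest and mouse 2 lowest in both groups, and the spread within a group was far larger than the difference of 0.01 (interval -0.29 to 0.30, limma, adjusted p = 0.98). Mdm2, which encodes the ubiquitin ligase of p53, measured 8.52, 8.43 and 8.22 against 8.50, 8.43 and 8.66. Mice 1 and 2 were alike in both genotypes, with same-numbered differences of 0.0157 and 0.0006, and mice 3 differed by -0.44. The group difference was -0.14 with an interval of -0.33 to 0.05 (limma, adjusted p = 0.38). Ccng1, which encodes cyclin G1, measured 11.41, 11.49 and 11.45 against 11.56, 11.47 and 11.54. The groups overlap through wild-type mouse 2, and the difference was -0.07 with an interval of -0.17 to 0.02 (limma, adjusted p = 0.36).

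Mouse 2 of the wild-type group had the highest signal of its group for all 6 Cip/Kip and D cyclin genes, and mouse 2 of the heterozygous group for 4 of these 6, namely Cdkn1c, Ccnd1, Ccnd2 and Ccnd3. For Cdkn2c, Gadd45a, Mdm2 and Ccng1, in contrast, wild-type mouse 2 had the lowest signal of its group. Heterozygous mouse 2 was nevertheless the highest of its group for Cdkn2c and Ccng1, and so for 6 of all 10 genes. Leaving out wild-type mouse 2 lowers the wild-type mean of all 6 Cip/Kip and D cyclin genes. The differences then became 0.35 for Cdkn1a, 0.53 for Cdkn1c, 0.19 for Ccnd2 and 0.17 for Ccnd3. Those of Cdkn1b and Ccnd1 moved towards 0, to -0.07 and -0.03. Cdkn1a and Cdkn1c passed in this fit, and the other 4 did not. Whether the mice numbered 2 have anything in common was not tested.

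**Figure D3:**
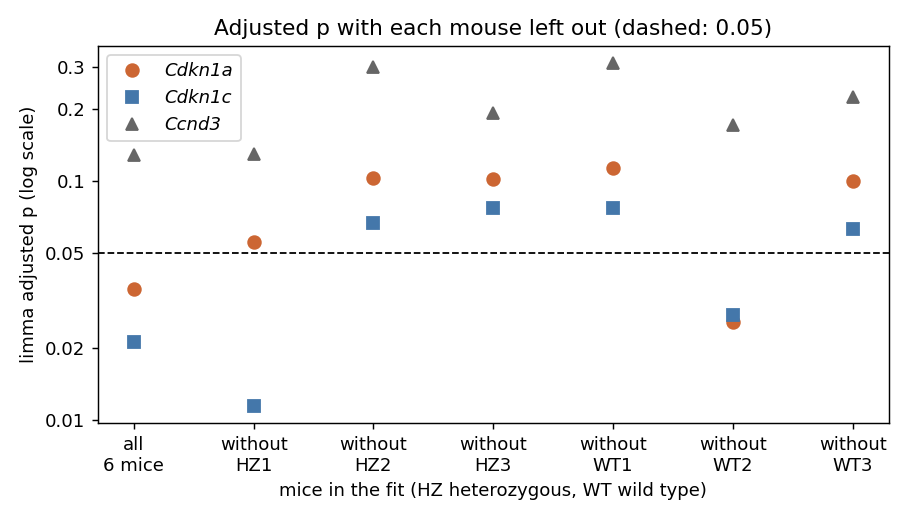
Adjusted p from limma (vertical axis, log scale) of Cdkn1a, Cdkn1c and Ccnd3 with all 6 mice and with each mouse left out (horizontal axis); the dashed line marks 0.05. Both inhibitor genes lie under the line with all mice and without wild-type mouse 2, Cdkn1c also without heterozygous mouse 1, and Ccnd3 in none of these fits.

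Genes of the same family were also set against each other within each array, over all 12 pairs among the Cip/Kip genes, the D cyclins and the p53 targets. With 3 mice against 3, a two-sided exact permutation test cannot go below 0.1, so no pair could pass. The log2 ratio of Cdkn1a to Cdkn1b had a mean of 1.18 ± 0.11 in the heterozygous group and 0.78 ± 0.08 in the wild-type group, without overlap (SD, n = 3 each; exact permutation p = 0.1, adjusted p = 0.171). The ratio of Cdkn1a to Mdm2 averaged -0.45 ± 0.13 and -0.88 ± 0.22, and that of Cdkn1a to Ccng1 -3.51 ± 0.06 and -3.87 ± 0.16, again without overlap and with the same exact p. For Cdkn1a to Gadd45a, at -0.85 ± 0.23 and -1.13 ± 0.28, the groups overlapped (exact permutation p = 0.3). Ccnd1 to Ccnd3 averaged -0.42 ± 0.02 and -0.21 ± 0.03, whereas Ccnd2 to Ccnd3 gave -0.43 ± 0.06 and -0.42 ± 0.04 with overlapping groups (exact permutation p = 0.7). Of the 12 pairs 7 did not overlap between the groups, and the share among other gene pairs was not computed. The ratios share genes and are not independent of each other. Those with Cdkn1a include the difference of Cdkn1a itself. Absolute ratios depend on the probes, so only their differences between mice can be read.

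Over the 6 arrays, the tested genes most like Cdkn1c in pattern were Cdc37 (Pearson r = 0.998), Ifi30 (0.996) and Slitrk3 (0.994). Those most like Cdkn1a were Gstt1 (r = 0.989), Arsb (0.986) and Ctr9 (0.985). Only Ifi30 of these 6 passed, with a difference of 0.26 (limma, adjusted p = 0.028), and it passed in 1 of the 6 fits without a mouse. Gstt1, at 0.21, did not pass (adjusted p = 0.063) but did with the mouse number as a block (adjusted p = 0.0477). Cdkn1a and Cdkn1c themselves correlated at r = 0.936. These values describe 6 arrays that fall into 2 genotypes, so each r includes the difference between the groups. The listed genes were picked for the highest r among 10850 named tested genes, so their high r follows from the choice.

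Other genes of these pathways were taken from 6 lists with 105 tested genes, of which 10 rose, 3 fell and 92 did not pass. Of all tested probe sets 1.53% rose and 1.58% fell. The lists were drawn up with earlier results for some of their genes known, and their counts are no independent evidence. Of 9 further inhibitors of the cycle tested, only Btg2, an antiproliferative gene that p53 also induces, rose, and none fell (list median 0.07). Its signal was 8.46, 8.71 and 8.54 in heterozygous and 7.94, 8.11 and 8.10 in wild-type mice, a difference of 0.52 ± 0.07 (SE; limma, adjusted p = 0.0116), and it passed in each of the 6 fits that left out a mouse. Tob2, of the same protein family, stood 0.32 higher (limma, adjusted p = 0.076; blocked by mouse number, adjusted p = 0.0314), and the growth regulator Cgref1 0.11 higher (adjusted p = 0.25). None of 18 kinases, E cyclins and E2F factors passed, with a median of -0.02. The closest were Fbxw7, the receptor of a ubiquitin ligase that degrades cyclin E, at 0.21 (limma, adjusted p = 0.067) and the repressor E2f6 at -0.13 (0.090). At an unadjusted p under 0.05, 8 of these 18 had been called, against 20.5% of all tested probe sets.

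The gene of p53 itself was not analysed here. None of 11 other members and regulators of the p53 family passed. Of their differences 8 were negative (median -0.06), as were 5846 of all 11544 tested. The smallest p belonged to the acetyltransferase gene Crebbp at -0.16 and the phosphatase gene Ppm1d at -0.11 (limma, adjusted p = 0.137 and 0.21). Ppm1d is itself a p53 target. Crebbp and Ppm1d alone of the 11 were under 0.05 before adjustment, as were 20.5% of all tested probe sets. Of 28 further genes listed as p53 targets 3 rose, 2 fell and 23 did not pass, with a median of 0.02. Among all tested probe sets 1.53% rose and 1.58% fell. Whether p53 acts on the listed genes in this muscle was not tested. Ddit4, an inhibitor of mTOR signalling that other stresses induce too, was 4.73-fold higher (difference 2.24 ± 0.29, SE; limma, adjusted p = 0.0104), with 9.91, 10.66 and 11.19 in heterozygous and 8.04, 8.65 and 8.35 in wild-type mice. Gadd45g, a relative of Gadd45a, was 2.04-fold higher. It read 10.43, 11.08 and 11.12 against 9.60, 9.84 and 10.11, a difference of 1.03 ± 0.19 (SE; limma, adjusted p = 0.0306). Both missed the threshold with a robust variance prior (limma, adjusted p = 0.0604 for Ddit4 and 0.105 for Gadd45g).

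Phlda3, an inhibitor of AKT signalling, fell by 0.28 on the log2 scale. Its signal was 11.52, 11.43 and 11.52 in heterozygous and 11.77, 11.80 and 11.75 in wild-type mice (SE 0.04; limma, adjusted p = 0.0133). Rrm2b, a ribonucleotide reductase subunit for DNA repair and mitochondrial DNA, fell by 0.21, from 8.11 ± 0.04 to 7.90 ± 0.04 (SD, n = 3 each; limma, adjusted p = 0.0326). The excision repair gene Ercc5 rose by 0.17 (limma, adjusted p = 0.0489). It missed the threshold with the mouse number as a block and with a variance trend (limma, adjusted p = 0.052 and 0.055). Rrm2b and Ercc5 missed the threshold whichever mouse was left out, while Phlda3 passed in 4 of these 6 fits, Ddit4 in all 6 and Gadd45g in 2. Trp53inp1, at 0.17, and the polymerase gene Polk, at -0.14, did not pass (limma, adjusted p = 0.168 and 0.184).

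Of 28 S phase and mitosis genes on the array, 16 were too dim to be tested, among them Cdk1, Top2a and Ccna2, and 12 were tested. Of these, Gmnn, an inhibitor of replication licensing, fell by 0.26 (SE 0.06; limma, adjusted p = 0.0488), and none rose (median -0.05). Among all tested probe sets 1.58% fell and 1.53% rose. Gmnn missed the threshold with cyclic loess (0.0522) and with a variance trend (0.0515), and it passed in 1 of the 6 fits without a mouse. The proliferation antigen gene Mki67 measured 7.71, 7.81 and 7.60 against 7.33, 7.52 and 7.44, without overlap (difference 0.27 ± 0.06, SE; limma, adjusted p = 0.064). It passed with the mouse number as a block and with a robust variance prior (limma, adjusted p = 0.032 and 0.0493). Cdc20, an activator of the anaphase-promoting complex, had a difference of 0.10 (limma, adjusted p = 0.16).

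**Figure D4:**
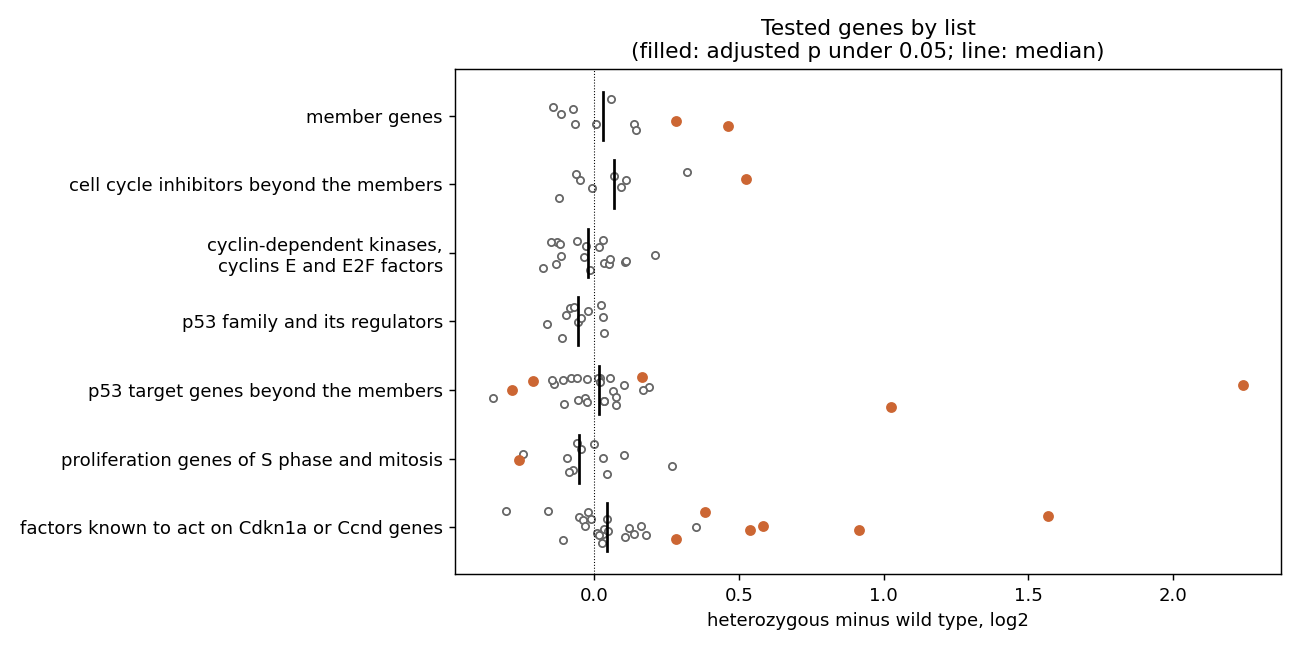
Log2 differences between heterozygous and wild-type mice (horizontal axis) of the tested genes in the 10-gene set and in each of the 6 lists; filled orange points passed an adjusted p of 0.05 and black lines mark medians. The list medians lie between -0.06 and 0.07, and the points farthest to the right are Ddit4 at 2.24 and Cebpd at 1.57.

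Of 27 factors known to act on Cdkn1a or on D cyclins, 21 did not pass. All 6 that passed were higher in heterozygous mice, as were 1.53% of all tested probe sets. The list median was 0.04, and the list was drawn up with earlier results for some of its genes known. The C/EBP factor genes Cebpd and Cebpb rose by 1.57 ± 0.22 and 0.92 ± 0.10 (SE; limma, adjusted p = 0.0125 and 0.0066). Cebpb measured 10.08, 10.29 and 10.49 in heterozygous and 9.26, 9.46 and 9.40 in wild-type mice, and it passed in each of the 6 fits that left out a mouse. The Krüppel-like factor genes Klf6 and Klf4, both activators of Cdkn1a, rose by 0.58 and 0.54 (limma, adjusted p = 0.0119 and 0.0354). Foxo1, also an activator of Cdkn1a, rose by 0.28, and Myog, which drives muscle differentiation, by 0.38 (adjusted p = 0.031 and 0.0321). Of the 6 fits that left out a mouse, Klf6 passed in 5, Cebpd in 3 and each of Klf4, Foxo1 and Myog in 2, with adjusted p of up to 0.0554, 0.054, 0.114, 0.103 and 0.103. With the robust prior Cebpd (0.0697) and Klf4 (0.057) missed the threshold. Myod1, an activator of Cdkn1a in differentiating myoblasts, stood 0.35 higher (limma, adjusted p = 0.061). It passed with the mouse number as a block and with array weights (limma, adjusted p = 0.0367 and 0.0416). Myc, a repressor of Cdkn1a, stood 0.16 higher (limma, adjusted p = 0.205). Whether any of these factors acts on Cdkn1a or the D cyclins in these mice was not tested.

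Markers of other cells in the muscle were read beside these genes. Of 10 endothelial markers Egfl7 fell by 0.25 (limma, adjusted p = 0.0271), none rose and 7 differences were negative. Among all 11544 tested probe sets 1.58% fell, 1.53% rose and 5846 differences were negative. Egfl7 passed in 1 of the 6 fits that left out a mouse. The mean log2 signal of this list was 8.13 to 8.26 in heterozygous and 8.27 to 8.40 in wild-type mice. No satellite cell marker of 9 tested passed (7.58 to 7.64 against 7.61 to 7.62 over 12 measured), and Pax7 was below the limit for testing. No fibroblast marker of 9 (10.14 to 10.26 against 9.83 to 10.21), leukocyte marker of 6 tested (7.77 to 7.81 against 7.76 to 7.94 over 8 measured) or adipocyte marker of 6 (8.37 to 8.80 against 8.23 to 8.51) passed. Neither did any of 8 smooth muscle and pericyte markers (8.52 to 8.91 against 8.56 to 8.78). The 5 Schwann cell markers (8.00 to 8.35 against 7.75 to 8.02) did not pass either, although all 5 differences were positive. A positive difference was found at 5698 of all 11544 tested probe sets. The part of these cells in the values of Cdkn1a and Cdkn1c was not tested.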

How the data were processed

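Quadriceps RNA of 6 mice was isolated with Trizol and a Qiagen kit and labelled with biotin by the Affymetrix procedure, per the labels' protocols. The deposited values are log2 signals, 1 column per array, and all columns held the same set of values once sorted, the mark of quantile normalization. The labels used here name no summarisation software, background correction or probe definition. The arrays' median was 7.23, and they correlated at 0.9965 to 0.9977 within and 0.9932 to 0.9953 between genotypes.

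The platform annotation named 15270 of 16492 gene probe sets with 1 gene each, and 1222 are unnamed here. Probe sets with a mean above the 30th percentile (6.74) were tested, 11544 in all, with limma 3.58.1 in R 4.3.3 (lmFit, eBayes). The fit was run on simulated data with independent noise in each mouse. There 88% of log2 changes of 0.3 were recovered, with 12 false calls. Smaller changes and effects shared by same-numbered mice were not simulated. Ratios were compared by exact permutation tests in scipy 1.17.1. Precision is limited by the number of arrays, and cross-hybridisation was not assessed.

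The genes, lists and tests were chosen with earlier results of these data known. The text names the 10 genes, Neb, the list genes that passed, the next 2 of each pathway list by p, marker genes that passed, and the 3 genes most like each of the 10 that passed. Genes named as dim were chosen after their values were seen. Same-numbered mice deviated from their group means together (r = 0.187, 0.234 and 0.129, all above the limit of 0.1), so the number was treated as a pairing in the alternative fit, although the labels do not say what it stands for.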

Additional observations from a re-analysis of the deposited data

How the results depend on the processing

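The counts of calls rest on few mice. Of the 10 genes, 2 passed with all 6 mice, and 0 to 2 when a mouse was left out (1 without heterozygous mouse 1, 2 without wild-type mouse 2, and 0 without any of the other 4). Over the pathway lists, 13 passed, and 4 to 12 with a mouse left out, the 4 without wild-type mouse 1 and without wild-type mouse 2. Over all probe sets, 359 passed, 84 to 503 with a mouse left out, and 572 with the mouse number as a replicate block. With the block, no filter, a filter at the 50th percentile, cyclic loess, array weights, a variance trend or a robust variance prior, each of the 10 genes kept its direction and its side of the threshold (69 values, since Cdkn1b was below the stricter filter). Of the 43 genes with a value under the block (the 10, Neb, the genes named from the lists and those most like Cdkn1a or Cdkn1c), it changed the calls of Tob2, Ercc5, Mki67, Myod1 and Gstt1. Cdkn1a had adjusted p of 0.0288 to 0.0475 over these 7 alternatives, and Cdkn1c of 0.00414 to 0.0218 (limma). Without a mouse, Gadd45a ranged from -0.12 to 0.13 on the log2 scale and so turned sign. Dim signals limit what could be seen of Cdkn1b and of the proliferation genes.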
